A study of Mus musculus with 2 samples.

Results

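The common gamma chain cytokine receptors were examined in Th1 cells that carry or lack chitinase 3-like 1 (Chi3l1). They were taken by gene symbol from the deposited tables as Il2ra, Il2rb, Il2rg, Il4ra, Il9r, Il15ra and Il21r, together with Jak3, the kinase that binds the gamma chain. All 8 symbols were found among the 24421 genes of each table. The RNA came from naïve CD4 T cells of C57BL/6J mice, 6 to 8 weeks old, that were skewed to Th1 in culture with IL-12, IL-2 and an antibody to IL-4 on plate-bound anti-CD3 and anti-CD28. The genotypes were Chi3l1+/+ (WT Th1) and Chi3l1-/- (Chi3l1 KO Th1), with 1 library each (n = 1). The knockout was total and not limited to T cells, the number of mice behind each library is not given in the sources used here, and the culture time given for such cells is 3 or 5 days, without saying which was sequenced. With no replicates, no difference between genotypes could be tested, and every interval given here covers counting error only.

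IL-2, IL-4, IL-7, IL-9, IL-15 and IL-21 all signal through receptors that contain the common gamma chain, encoded by Il2rg. The gamma chain binds JAK3, and the partner chains bind JAK1, and together the kinases phosphorylate STAT5, STAT6 or STAT3 depending on the receptor. The alpha chain Il2ra (CD25) gives the IL-2 receptor its high affinity and is induced by T cell activation and by IL-2 itself, the beta chain Il2rb (CD122) is shared by IL-2 and IL-15, and Il15ra presents or binds IL-15. The remaining members bind 1 cytokine family each, Il4ra for IL-4 and IL-13, Il9r for IL-9 and Il21r for IL-21.

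Deposited values are on a log2 scale, taken here as log2(normalized reads + 1). Undoing the log gave values in even steps of 0.97 per read in each library, so the reads could be rebuilt, to a total of 70551922 (WT Th1) and 62888367 (Chi3l1 KO Th1). The targeted gene Chi3l1, listed as Chil1, had 1 rebuilt read in the library labelled WT Th1 and 103 in the library labelled Chi3l1 KO Th1. This is opposite to what the labels say, and the part of the gene that the knockout removes is not given in the sources used here. The libraries are therefore called WT-labelled and KO-labelled below, and every direction rests on those labels. The cells had the defining transcripts of T cells, with 6 of 6 markers (Cd3d, Cd3e, Cd3g, Cd247, Cd4 and Lck) at log2 values of 11.91 to 16.49 and within 0.37 of each other between the libraries. Tbx21, the Th1 master regulator, was at 13.98 and 13.72 (Tbx21 in the WT-labelled and KO-labelled library). In RNA from a whole culture, fewer cells of a type and less RNA per cell cannot be told apart.

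The upstream sequences of 5 members (Il2ra, Il2rg, Il4ra, Il21r and Jak3) are shown first. Each is the 250 bases before the RefSeq transcription start (GRCm38.p6), written 5′ to 3′ on the gene's own strand. Of the 8 members, 7 have such a window in the table used, and Il2rb does not. The Il4ra and Jak3 windows run past the starts of these genes in the GENCODE annotation used below (125552120 and 71676296). Part of each of these windows therefore lies inside the annotated gene.
Il2ra, chr2:11642542-11642791, plus strand: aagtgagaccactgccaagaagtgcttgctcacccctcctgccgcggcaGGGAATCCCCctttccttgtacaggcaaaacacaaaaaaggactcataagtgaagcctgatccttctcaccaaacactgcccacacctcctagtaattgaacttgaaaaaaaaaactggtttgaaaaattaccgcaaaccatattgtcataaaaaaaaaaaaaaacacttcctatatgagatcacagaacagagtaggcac
Il2rg, chrX:101268256-101268505, minus strand: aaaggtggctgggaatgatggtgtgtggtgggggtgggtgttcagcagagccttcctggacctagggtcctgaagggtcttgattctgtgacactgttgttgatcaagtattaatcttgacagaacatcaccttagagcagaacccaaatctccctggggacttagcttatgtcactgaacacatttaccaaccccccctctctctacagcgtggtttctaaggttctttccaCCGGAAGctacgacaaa
Il4ra, chr7:125552021-125552270, plus strand: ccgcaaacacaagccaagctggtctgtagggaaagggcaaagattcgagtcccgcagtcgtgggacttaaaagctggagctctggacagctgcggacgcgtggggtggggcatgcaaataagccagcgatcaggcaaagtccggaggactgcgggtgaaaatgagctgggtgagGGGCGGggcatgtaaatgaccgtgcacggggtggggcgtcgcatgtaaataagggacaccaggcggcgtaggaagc
Il21r, chr7:125603179-125603428, plus strand: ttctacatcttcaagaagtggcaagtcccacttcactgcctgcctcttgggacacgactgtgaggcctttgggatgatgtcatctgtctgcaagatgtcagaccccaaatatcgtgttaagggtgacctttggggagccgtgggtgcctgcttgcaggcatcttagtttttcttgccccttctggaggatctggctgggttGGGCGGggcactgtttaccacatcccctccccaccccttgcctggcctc
Jak3, chr8:71676133-71676382, plus strand: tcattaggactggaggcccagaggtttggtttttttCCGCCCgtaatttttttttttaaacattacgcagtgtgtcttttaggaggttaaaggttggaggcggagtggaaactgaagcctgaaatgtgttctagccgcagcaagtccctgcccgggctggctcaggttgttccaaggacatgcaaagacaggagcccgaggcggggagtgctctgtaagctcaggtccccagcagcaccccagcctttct
Capitals mark exact matches, on either strand, to 6 motifs. The STAT5 motif was searched as TTCNNNGAA, and the STAT6 motif is the same with a spacer 1 base longer. The GC box, bound by SP1 and related factors, was searched as GGGCGG. The TATA box, which positions the start of transcription, was searched as TATAAA. The ETS motif was searched as CCGGAAG, and the last was an NF-kappaB motif in a form that is not palindromic. The NF-kappaB and ETS letters were added after the windows had been read. Their presence in these windows was therefore known in advance, and the shares given for them do not measure how unusual the matches are. The Il2ra window held the NF-kappaB motif, starting 201 bases before the start, which is present in 1.53% of 32851 mouse promoter windows of this length. The Il2rg window held the ETS motif 17 bases before the start, present in 6.91% of all windows. Il4ra, Il21r and Jak3 each held 1 GC box, at 76, 49 and 214 bases before the RefSeq start, and 32.7% of all windows hold one. The GC box of Il4ra lies in the part of its window that is inside the GENCODE gene, and that of Jak3 does not. None of the 8 windows of the 7 members (Il15ra has 2) held the STAT5, STAT6 or TATA letters, which 7.02%, 5.85% and 12.4% of all windows hold. Basic helix-loop-helix factors bind E-boxes (CANNTG, not capitalised here), which stood 164 bases before the start of Il4ra and 170 bases before that of Il21r and are found in 66.2% of all windows. These matches describe the letters in the windows and are not binding data. The GC content of the windows went from 42.4% for Il2ra through 49.2% for Il2rg, 52.4% for Jak3 and 55.6% for Il21r to 59.6% for Il4ra, and the median over all windows was 52.4%.

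The IL-2 receptor chains differed in opposite directions between the libraries. Il2ra was higher in the KO-labelled library while Il2rb and Il2rg were lower, so the make-up of the IL-2 receptor transcripts differed more than the level of any chain. Il2ra had a log2 value of 15.83 in the WT-labelled library and 16.07 in the KO-labelled library, from 59956 and 71221 rebuilt reads. Its log2 fold change (KO-labelled minus WT-labelled) was 0.25, with an exact binomial (Clopper-Pearson) 95% interval from 0.23 to 0.26. Il2rb (chromosome 15, 78479256 to 78495271, minus strand) went from 16.60 (102101 reads) to 15.93 (64455 reads), a log2 fold change of -0.67 (95% interval -0.68 to -0.65), or 1.59-fold lower. Il2rg went from 15.69 (54638 reads) to 15.25 (40258 reads), a log2 fold change of -0.44 (95% interval -0.46 to -0.42). The plot of deposited values by gene shows the 2 libraries side by side.

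**Figure D1:**
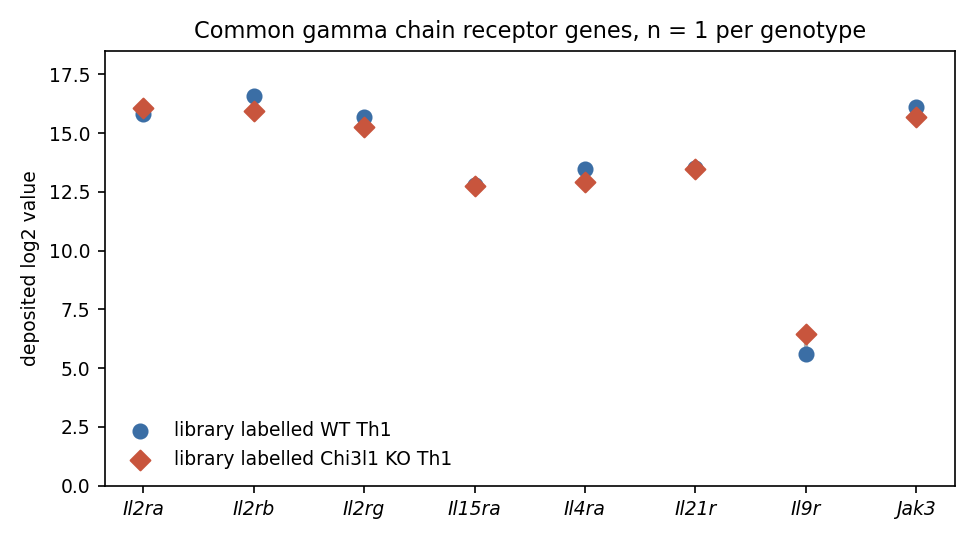
Deposited log2 values (y axis) of the 8 genes (x axis) in the library labelled WT Th1 (circles) and the library labelled Chi3l1 KO Th1 (diamonds), with 1 library per genotype and a grey line joining each pair. Il2rb is at 16.60 and 15.93 and Il2ra at 15.83 and 16.07, so that their order is exchanged, while Il9r is at 5.60 and 6.45.

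A ratio of reads within a library does not depend on how the libraries were scaled to each other. The reads of Il2ra were 0.587 times those of Il2rb in the WT-labelled library (95% exact interval 0.581 to 0.593) and 1.10 times in the KO-labelled library (1.09 to 1.12), a 1.88-fold shift toward the alpha chain. Against the gamma chain, Il2ra went from 1.10 to 1.77 times the reads of Il2rg, a 1.61-fold shift. The beta chain went from 1.87 to 1.60 times the reads of Il2rg, a log2 change of -0.22 that was -0.02 with the GC trend (described below) removed. Together the transcripts of the IL-2 receptor made up 67.6% of the reads of all 8 members in the WT-labelled library and 68.6% in the KO-labelled library. They hold most of the reads of the family in either library.

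Il2ra is also made at high level by regulatory T cells, and their markers were higher in the KO-labelled library as well. Foxp3, the defining factor of that lineage, was at 10.94 and 11.66, Ikzf2 at 7.35 and 8.26 and Il1r2 at 3.96 and 6.02 (log2 values, WT-labelled and KO-labelled), so that 3 of 3 were higher by at least 1.5-fold. Of all genes at log2 4 or above in 1 or both libraries, 9.6% were higher by 1.5-fold. Il1r2 rested on only 15 and 66 reads. By the methods of the study, the naïve cells were isolated as CD25-negative before the culture. The summed reads of the 3 markers were 2205 and 3728, against 59956 and 71221 reads of Il2ra. Whether regulatory T cells contribute to the Il2ra difference was not tested.

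Il15ra, whose gene lies next to Il2ra, differed little. The 2 genes are on the plus strand of chromosome 2 (GRCm38, GENCODE M21), Il2ra from 11642807 to 11693193 and Il15ra from 11705290 to 11734317, 12.1 kb apart with no protein-coding gene between them. Il15ra had log2 values of 12.80 and 12.75 from 7370 and 7091 reads, a log2 fold change of -0.06 (95% interval -0.11 to -0.01). The change of Il2ra minus that of Il15ra was 0.30 on the log2 scale. Since Il2rb, the signaling chain that Il15ra shares, was lower, Il15ra went from 7.22% to 11% of the reads of Il2rb.

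Jak3 and Il2rg, the kinase and the chain it binds, kept the same ratio. Jak3 (chromosome 8, 71676296 to 71690575, plus strand) had log2 values of 16.11 and 15.66 from 72900 and 53491 reads, a log2 fold change of -0.45 (95% interval -0.47 to -0.43). Il2rg lies on chromosome X from 101264378 to 101268255 on the minus strand. The reads of Jak3 were 1.33 times those of Il2rg in the WT-labelled library (1.32 to 1.35) and 1.33 times in the KO-labelled library (1.31 to 1.35). The likeness of the 2 genes rests on the deposited scale, since their GC contents of 61.0% and 49.0% differ and a trend with GC content ran through these libraries, as described below.

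Some annotated exon bases of Jak3 are shared with another gene. Insl3, a peptide hormone of the testis, lies within the span of Jak3 on the same strand (71689214 to 71690575), and 404 of its 623 exon bases, or 64.8%, are also annotated as exons of Jak3. Insl3 was listed at 12.28 and 11.82 from 5118 and 3719 reads, which is 7.02% and 6.95% of the reads of Jak3. Its value in T cells is therefore uncertain and may hold reads of Jak3. At Il2rg, 728 of 1350 exon bases of the annotated gene Gm20489 are shared, and at Il4ra, 571 of 670 exon bases of Gm44876 on the opposite strand, and neither gene is listed in the tables. Apart from Gm20489, no other gene's transcript matched the longest transcript of a member over more than 164 bases at 95% identity or above.

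The IL-4 and IL-21 receptor genes are also neighbours and differed from each other. Il4ra (chromosome 7, 125552120 to 125579474) and Il21r (125603429 to 125633570) are both on the plus strand, 24.0 kb apart with no protein-coding gene between them. Il4ra had log2 values of 13.46 and 12.92 from 11630 and 8006 reads, a log2 fold change of -0.54 (95% interval -0.58 to -0.50), or 1.45-fold lower in the KO-labelled library. Il21r had log2 values of 13.52 and 13.47 from 12090 and 11746 reads, a log2 fold change of -0.04 (95% interval -0.08 to -0.01). The 2 genes had close values in the WT-labelled library, and only Il4ra was lower in the KO-labelled library by more than 0.1. Relative to the gamma chain, Il21r went from 22.1% to 29.2% of the reads of Il2rg, whereas Il4ra went from 21.3% to 19.9%. With the GC trend removed, the ratio of Il4ra to Il2rg was 1.13-fold higher in the KO-labelled library and that of Il21r to Il2rg 1.56-fold higher, so the direction for Il4ra depends on the scale. The sign of Il21r and Il15ra changed with the scaling, and both stayed within 0.14 of 0 under each alternative tried.

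Il9r was close to absent. The IL-9 receptor (chromosome 11, 32187541 to 32200279, minus strand) had log2 values of 5.60 and 6.45 from 49 and 89 reads, a log2 fold change of 0.85 (wide 95% interval 0.34 to 1.39). It is the member with the largest difference and the fewest reads, with 0.0897% and 0.221% of the reads of Il2rg. IL-9 receptors are found on mast cells and on some B cells and T cells. Of the mast cell or basophil markers, 3 of 4 had a read and all 3 were lower in the KO-labelled library, with summed reads of 100 and 19 and Ms4a2 at 0 in both. Of the B cell markers (Cd79a, Cd79b, Ms4a1 and Pax5), 4 of 4 were higher, 3 of them by at least 1.5-fold. Of all genes at log2 4 or above in 1 or both libraries, 9.6% were higher by 1.5-fold. The summed reads of the B cell markers were 691 and 1095. The part of such cells in the reads of Il9r was not tested.

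No member was 2-fold different, 1 was higher by at least 1.5-fold (Il9r) and 1 was lower (Il2rb). Il2rb stayed lower but came short of 1.5-fold after quantile normalization (-0.52), with the GC trend removed (-0.53), scaled to Actb (-0.55) and centred on highly expressed genes (-0.57). For comparison, over all 24421 genes 10.5% differed by 2-fold in either direction, and 9.6% were higher and 11.4% lower by 1.5-fold. Among the 13275 genes at log2 4 or above in 1 or both libraries, which include all 8 members, the shares were 8.33%, 9.6% and 11.8%. Apart from Il9r, the members were among the 2480 genes at log2 12 or above in both libraries, of which 0.806% were higher and 5.32% lower by 1.5-fold and 0.403% differed by 2-fold. In that set the median log2 fold change was -0.10 as deposited, -0.09 after median-ratio scaling and -0.04 with the GC trend removed. It was 0.01 after quantile normalization and 0.02 after scaling to Actb, so its direction depends on the scale. The median over the 8 members was -0.25, with 6 lower and 2 higher. Of the 2480 genes, 3.1% were lower by as much as Il2rb, 6.94% by as much as Il4ra, 11.8% by as much as Jak3 and 12.1% by as much as Il2rg, and 10.5% were higher by as much as Il2ra. In the plot of fold change against mean value, the members lie inside the cloud of genes of like value.

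**Figure D2:**
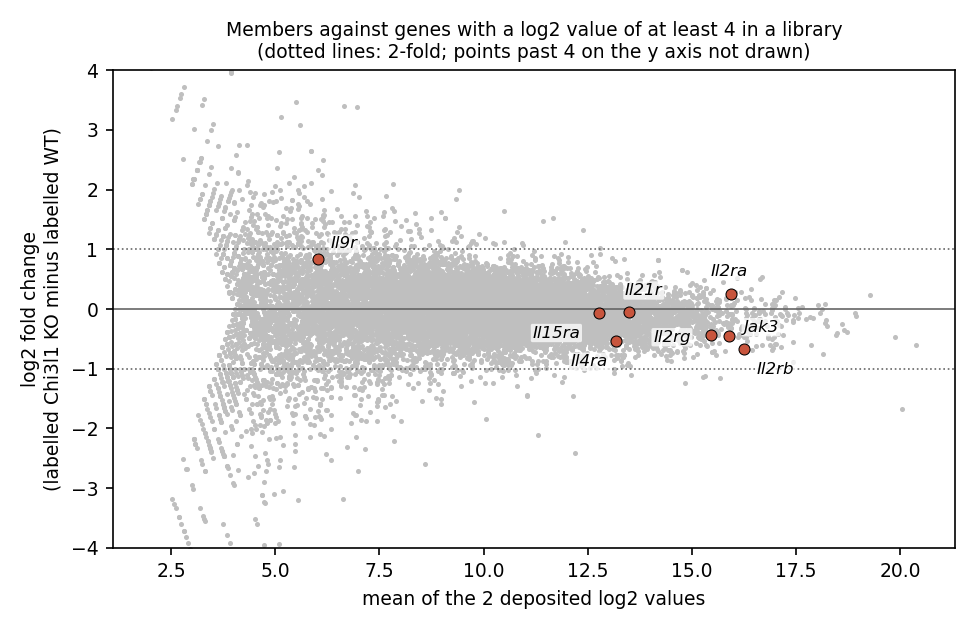
Log2 fold change, KO-labelled minus WT-labelled (y axis), against the mean of the 2 deposited log2 values (x axis) for genes at log2 4 or above in 1 or both libraries (grey) and the 8 members (red, named), with 1 library per genotype. The 7 highly expressed members lie between -0.67 for Il2rb and 0.25 for Il2ra, inside the dotted lines at 2-fold.

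Fold changes followed the GC content of the transcripts. Over 8579 genes at log2 8 or above in both libraries, Spearman's rho between the GC content of the longest transcript and the log2 fold change was -0.53 (across genes, which are not replicates), and with the genes in 20 bins of GC content, the bin medians ran from 0.23 (lowest GC) to -0.45 (highest GC). The 8 members ran from 44.4% GC for Il2ra to 61.0% for Jak3, with a rho of -0.52 across them. Jak3 lay on this trend, since genes of its GC content had a median of -0.45, and with the trend removed its log2 fold change was 0.004. Il2rg, at 49.0% GC where the median was 0.07, lay below the trend and had -0.51 once it was removed. Il2rb at 53.9% GC had -0.53, Il4ra at 55.8% had -0.33 and Il2ra had 0.11. The part of GC content in the members' differences was not otherwise tested. The shift in the ratio of Il2ra to Il2rb was 1.56-fold with the trend removed, against 1.88-fold as deposited, and the ratio of Jak3 to Il2rg was then 1.43-fold higher in the KO-labelled library.

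**Figure D3:**
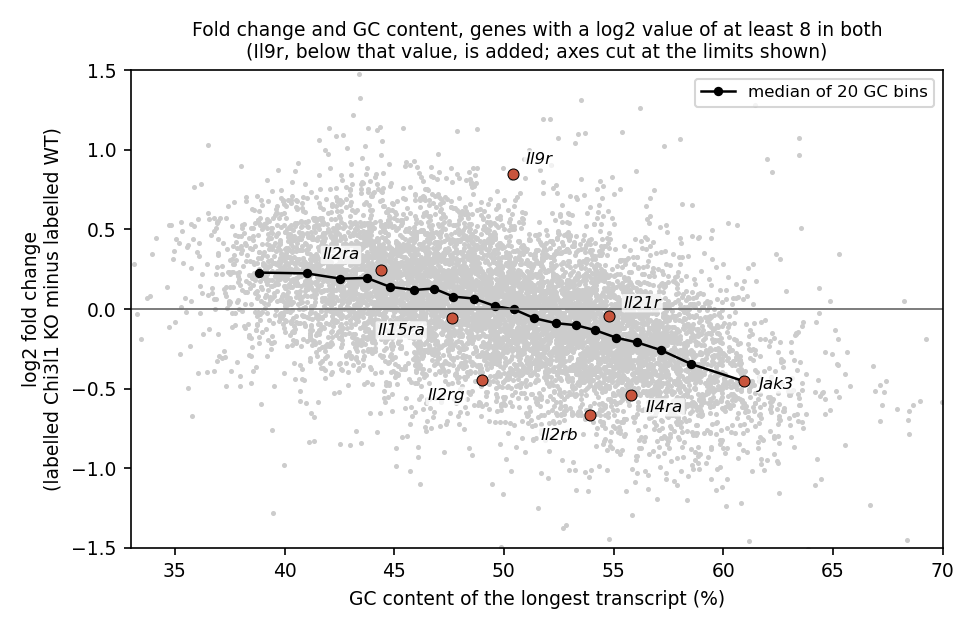
Log2 fold change, KO-labelled minus WT-labelled (y axis), against the GC content of the longest transcript in percent (x axis) for genes at log2 8 or above in both libraries (grey), the medians of 20 GC bins (black line) and the 8 members (red, named). Jak3 lies on the line at -0.45, whereas Il2rb, Il2rg and Il4ra lie below it.

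**Figure D4:**
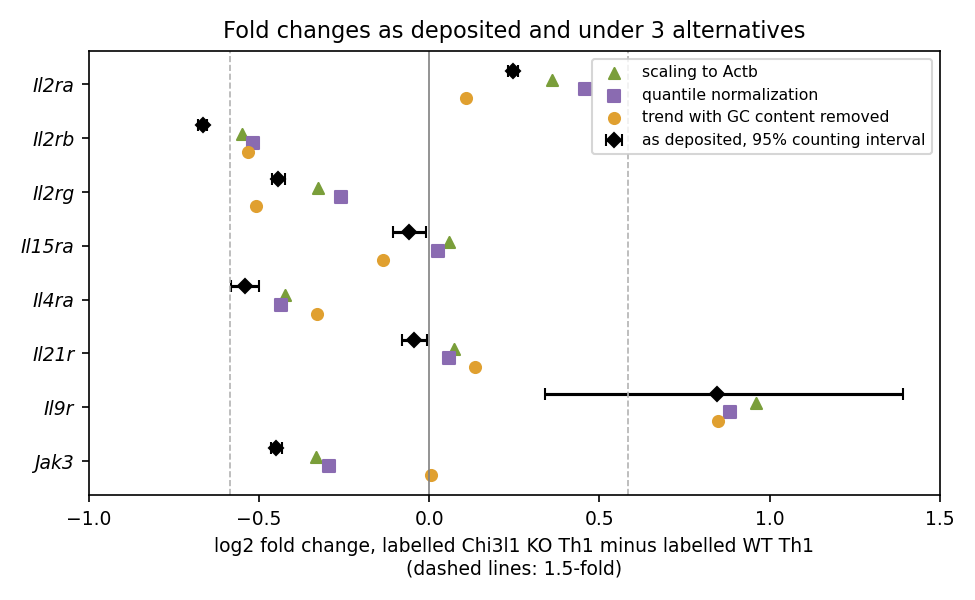
Log2 fold change of each member, KO-labelled minus WT-labelled (x axis), as deposited with its 95% counting interval (diamonds), after scaling to Actb (triangles), after quantile normalization (squares) and with the GC trend removed (circles). Il2rb, Il2rg and Il4ra are below 0 and Il2ra and Il9r above 0 in all 4, while Jak3 goes from -0.45 to 0.004 and Il15ra and Il21r cross 0.

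Levels of different genes were compared per kb of transcript and per 1000000 reads of the library. With the longest transcript as the length, the WT-labelled library had 464 for Il2rg, 345 for Il2rb, 255 for Jak3 and 193 for Il2ra (reads per kb per 1000000). The KO-labelled library had 383 for Il2rg, 257 for Il2ra, 244 for Il2rb and 210 for Jak3. Il2ra thus moved from the fourth to the second place. Below these came Il21r with 68.6 and 74.7, Il15ra with 45.1 and 48.7, Il4ra with 31.4 and 24.2, and Il9r with 0.155 and 0.316. Scaling by total reads is not the deposited scaling, so these levels compare genes within a library and not the libraries. Il21r and Il15ra are higher in the KO-labelled library on this scale and slightly lower as deposited. The order within the upper group depends on the length used, because the coding sequence is a small part of the Il2ra transcript (0.804 of 4.41 kb). Per kb of coding sequence, Il2ra was first in both libraries, with 1057 and 1409. Il2ra, Il2rb, Il2rg and Jak3 were above the other 4 members with each of the 3 lengths.

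**Figure D5:**
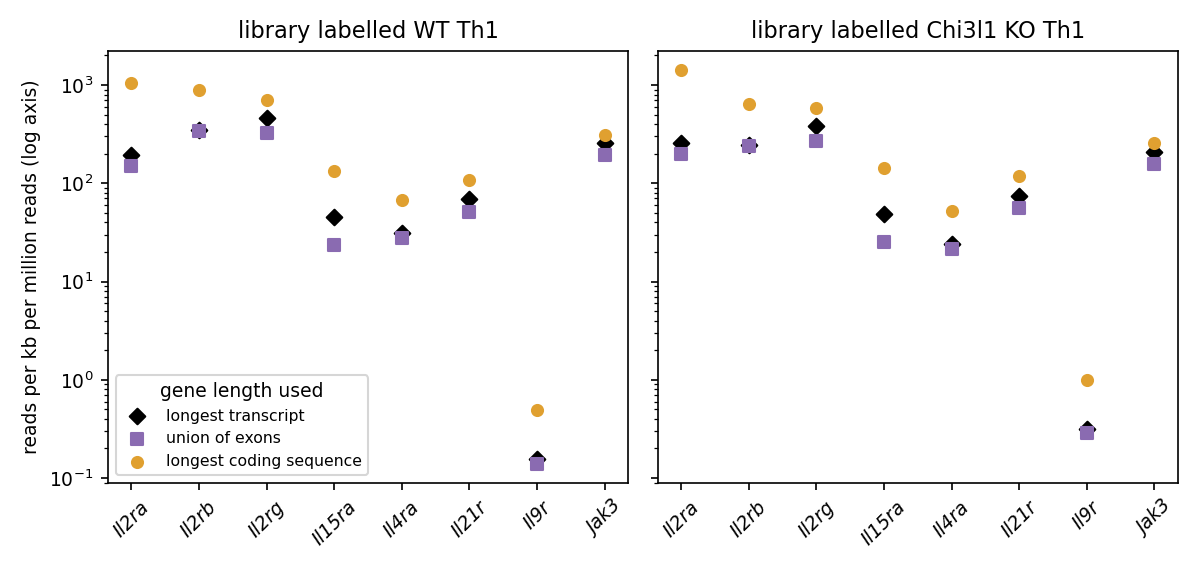
Reads per kb per 1000000 reads of the library (y axis, log axis) of the 8 members (x axis) in the library labelled WT Th1 (left) and the library labelled Chi3l1 KO Th1 (right), with the length taken as the longest transcript (diamonds), the union of exons (squares) or the longest coding sequence (circles). Il2ra, Il2rb, Il2rg and Jak3 stand above the others with each length, and Il9r is lowest, at 0.155 and 0.316 by the longest transcript.

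Of the transcripts of cytokines that bind these receptors, only Il2 and Il21 had more than 9 reads in either library. Il2 had log2 values of 8.91 and 8.98 from 494 and 520 reads, and its fold change interval of -0.11 to 0.25 includes no difference. Il21 had 9.35 and 9.86 from 671 and 958 reads, a log2 fold change of 0.51 (95% interval 0.37 to 0.66). With the GC trend removed, Il21 was at 0.28 and Il2 at -0.16. Il4 had 1 and 9 reads and Il15 had 7 and 3, while Il7 and Il9 had no read in either library, where 3 reads would give a log2 value of 1.96 and 1.95. IL-2 was also added to the medium, so its transcript does not describe the IL-2 the cells received.

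Other chains of these receptor systems differed in their own ways. Crlf2, which joins Il7r in the receptor for TSLP, was at 12.79 and 11.93 from 7279 and 4025 reads. Its log2 fold change of -0.86 (interval -0.91 to -0.80) was larger as deposited than that of any highly expressed member. With the GC trend removed it was -0.40, short of 1.5-fold and smaller than that of Il2rb and Il2rg. Il7r, the IL-7 receptor alpha chain, was at 9.64 and 9.80 from 823 and 917 reads, a log2 fold change of 0.15 (95% interval 0.02 to 0.29) that turned to -0.07 with the GC trend removed. Il13ra1, which pairs with Il4ra, was at 4.76 and 5.24 from 27 and 38 reads, with an interval of the log2 fold change from -0.26 to 1.26.

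Downstream of the receptors, most listed genes were within 1.5-fold. Jak1 and the STATs (Stat3, Stat5a, Stat5b and Stat6) gave 5 of 5 within 1.5-fold, with Stat5a at 0.21 and Stat5b at -0.03 on the log2 fold scale. With the GC trend removed all 5 were still within 1.5-fold, but Stat5a was then at 0.55 and Stat5b at 0.06. Of the adaptors, 6 of 6 were within it. Of 6 inhibitors of this signaling, Socs1 was lower by 1.5-fold or more, with a log2 fold change of -0.87, and Ptpn2, a phosphatase that acts on JAK1 and JAK3, was higher, with 0.65 (4619 and 7235 reads). With the GC trend removed neither reached 1.5-fold, at -0.52 for Socs1 and 0.42 for Ptpn2. Of all genes at log2 4 or above in 1 or both libraries, 9.6% were higher and 11.8% lower by 1.5-fold as deposited. All 6 inhibitors were at log2 12 or above in both libraries, where the shares were 0.806% and 5.32%. Cish, an early target and inhibitor of STAT5 signaling, was at 14.31 and 13.85, a log2 fold change of -0.45 that does not reach 1.5-fold.

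Of 16 genes known to be induced by IL-2 or its relatives, 1 was higher and 1 lower by 1.5-fold. Over all genes at log2 4 or above in 1 or both libraries, the shares were 9.6% and 11.8%. Prdm1, which encodes BLIMP-1, went from 8.49 to 9.30 (370 and 648 reads), a log2 fold change of 0.80. Ccnd3, a G1 cyclin, went from 17.46 to 16.82, a log2 fold change of -0.64. After removal of the GC trend, Prdm1 was still past 1.5-fold (0.68) and Ccnd3 was not (-0.38). Of 5 genes known to be repressed, 2 were lower, namely Klf2 from 12.51 to 11.64 (-0.88) and Tcf7 from 15.66 to 15.05 (-0.61), both factors of naïve and memory T cells. Neither reached 1.5-fold with the GC trend removed, at -0.42 for Klf2 and -0.52 for Tcf7. The median log2 fold change of the 16 induced genes was -0.09, and 0.01 with the GC trend removed. For comparison, the median was -0.01 over all genes at log2 4 or above in 1 or both libraries and -0.10 over those at log2 12 or above in both, a level that 11 of the 16 reach. The median of the 5 repressed genes was -0.21, and -0.20 with the trend removed.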

How the data were processed

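RNA was prepared with the SENSE mRNA-Seq kit from polyadenylated RNA and sequenced as paired reads. The authors mapped the reads with TopHat (mm10, per the labels), counted unique and multiple alignments, used edgeR, and applied a global normalization. The annotation and the versions of TopHat and edgeR are not given in the sources used here. The unit of the deposited values, log2(normalized reads + 1), was inferred from the values. Of the values between 0.5 and 300 on the linear scale, 99.5% (WT Th1) and 99.4% (Chi3l1 KO Th1) fell within 0.1 read of a whole number. For the highly expressed genes single reads cannot be resolved at 3 decimals of log2. Reads are not independent molecules, so intervals cover counting error only.

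Fold changes are differences of deposited values, KO-labelled minus WT-labelled, and no test was made (1 library each). Transcript lengths, GC content and coordinates came from GENCODE M21 (GRCm38, the assembly of mm10), which matched 96.1% of the 13275 genes at log2 4 or above in 1 or both libraries and all 8 members. The longest transcript of Il15ra is a 2-exon form, so its length and GC content are uncertain. Members and gene lists were chosen with earlier results of these data known, and 2 genes of the lists are not reported here. Named beside the members are all ligands and partner chains and, of each other list, the genes at 1.5-fold or more that reach log2 4 in 1 or both libraries, at most the 4 largest a list. Cish, the STAT5 genes, Il3ra and Csf2ra were named after their values were seen. No gene is named for a pattern like a member's, since 2 libraries give no measure of likeness. Transcripts of other genes with at least 100 bases at 95% identity were found with BLAST 2.17.0. The alternatives were other pseudocounts, a filter on low values, median-ratio, quantile and Actb scaling, removal of the GC trend, other gene lengths and, added after seeing the data, centring on genes at log2 12 or above in both libraries. The scripts were tested on simulated data. Calculations ran in Python 3.11.15 with scipy 1.17.1, pandas 2.3.3 and numpy 2.4.6, and figures in matplotlib 3.10.9.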

Additional observations from a re-analysis of the deposited data

How the results depend on the processing

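Il2ra, Il2rb, Il2rg, Il4ra and Il9r kept their direction under all 7 alternatives to the deposited scale, with log2 fold changes (KO-labelled minus WT-labelled) of 0.11 to 0.46, -0.67 to -0.52, -0.51 to -0.26, -0.54 to -0.33 and 0.85 to 0.96. Il15ra turned to 0.026 under quantile normalization, 0.058 under scaling to Actb and 0.039 under centring on genes at log2 12 or above in both libraries. Il21r turned to 0.059, 0.072 and 0.053 under these, and to 0.14 with the GC trend removed, where Jak3 turned to 0.004. No member was lower by 1.5-fold, against 1 as deposited, under quantile normalization (0), scaling to Actb (0), removal of the GC trend (0) and the centring (0), because Il2rb came to between -0.57 and -0.52. The median over members was -0.12, -0.13, -0.066 and -0.15 in the same order, against -0.25. Scaling to Actb, whose log2 fold change was -0.12, raised the median of the genes at log2 8 or above in both libraries from -0.01 to 0.10, and moved the share of higher genes among those past 1.5-fold from 44.8% to 61.1%. The centring moved that share to 58.9%. With the union of exons as length, 4 of the 8 members kept their rank of level per kb in the WT-labelled and 6 in the KO-labelled library, and with the coding length 3 did in the WT-labelled and 3 in the KO-labelled library. No paired analysis was possible because there is 1 library per genotype, and leaving out a replicate was not possible for the same reason. Depth limits Il9r, Il4, Il15 and Il13ra1, which had fewer than 100 reads in each library.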

Other observations

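Other cytokine receptors were set beside the gamma chain family. Of 39 listed receptors outside it, 33 had a read in at least 1 library and 26 had a log2 value of at least 4 in at least 1, of which 2 were higher and 8 lower by 1.5-fold in the KO-labelled library. Over all genes at that level, 9.6% were higher and 11.8% lower. With the GC trend removed the counts in the list were 1 higher and 5 lower. Csf2rb, the beta chain shared by the GM-CSF, IL-3 and IL-5 receptors, went from 7.88 to 5.57 (241 and 48 reads), a log2 fold change of -2.31 with a 95% counting interval from -2.81 to -1.88. Its partners Il3ra and Csf2ra, named after their values were seen, were also lower, with log2 fold changes of -0.85 (2074 and 1154 reads) and -0.71 (676 and 413 reads). With the GC trend removed they were -0.39 and -0.37, short of 1.5-fold, while Csf2rb was at -2.17. Il1r2, a decoy receptor for IL-1, went from 3.96 to 6.02 (15 and 66 reads), a log2 fold change of 2.07, and is also in the list of regulatory T cell markers. Prlr, the prolactin receptor, had 21 and 7 reads and a log2 fold change of -1.47. Csf3r, the G-CSF receptor, had 23 and 11 reads and -1.004, with an interval that reaches 0.03. Markers of myeloid cells, which also carry Csf2rb, were scarce. The neutrophil markers summed to 60 and 5 reads, with 4 of 5 lower and Camp at 0 in both, and the macrophage or monocyte markers to 545 and 475 reads, with Adgre1 at 0 in both. Among the latter, Cd68 held most of the reads, with 402 and 299. Lyz2 had 34 and 2 reads and Cd14 had 12 and 0, whereas Csf1r had 97 and 174. The part of such cells in the Csf2rb difference was not tested.

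The remaining marker lists gave the following summed reads in the WT-labelled and KO-labelled libraries. The dendritic cell markers had 76 and 126, with Flt3 (18 and 68 reads) and Zbtb46 (14 and 48) higher and Itgax (44 and 5) lower. The CD8 T cell markers had 837 and 833, with Cd8a higher (288 and 437) and Cd8b1 lower (549 and 396), and the NK cell markers 2136 and 2791, most of them from Eomes, which activated T cells also make. The Th1 markers had 36193 and 44245, with Ifng (3478 and 8718 reads) and Il12rb2 (15788 and 21529) higher and Tbx21 (16654 and 13882) and Cxcr3 (273 and 116) lower.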
